A study of Mus musculus with 21 samples.

Results

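The genes described here are 10 genes of natural killer (NK) cells and their cytotoxic granules, taken from a list of symbols: Ncr1, Klrb1c, Klrc1, Klrc2, Gzma, Gzmb, Prf1, Nkg7, Eomes and Tbx21. All 10 were found once each among the 55471 genes of the deposited count table. NK cells are innate lymphocytes that read activating and inhibitory receptors on a target cell and then release granules. Perforin opens the target's membrane and granzymes, a family of serine proteases, enter and start its death, and the T-box factors Eomes and T-bet (Tbx21) direct the development of the cells. Dendritic cells (DCs) take up and present antigen. They are not defined by these genes, although some DC subsets are known to use T-bet, and granzyme B is also known from human plasmacytoid DCs.

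The libraries came from DCs of a mouse strain that carries a reporter for Aire, the regulator of tissue antigen expression known from the thymus, and the comparisons ask how Aire-reporter (AGF) cells differ from other DCs and what loss of Aire does. Every group held 3 libraries, labelled as independent biological replicates, from C57BL/6 mice of 6 weeks labelled male. All mice carried the AGF knock-in allele: it stood beside a wild-type allele (AGF-KI/+, here KI/+) or beside a lost one (AGF-KI/-, titled AireKO). Lymph node (LN) sorts started from CD45+CD11c+MHCII+ cells, and AGF+ and AGF- cells of both genotypes gave 4 groups. Bone marrow (BM) gave AGF+ cells of both genotypes from a B220-CD24+ fraction without or low in CD11b, and a KI/+ group titled total DC, which the study's design text calls AGF-, from a B220-CD11c+MHCII+ fraction. The BM sorts therefore differed in gate as well as in reporter, so in BM the gate and the reporter cannot be told apart. LN and BM sorts also differed in gate, so comparisons across tissues cannot tell tissue and gate apart. The labels name no exclusion of NK1.1 or CD3 in any gate.

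Library totals ran from 4164451 to 6055097 counts, so 3 counts in 1 library, taken here as the detection floor, amounted to 0.456 to 0.764 CPM (counts scaled to equal library size). CPM values here use library sizes adjusted by edgeR's TMM method, and intervals from counts cover counting error only. Aire itself ran at 98.7 to 132 CPM in LN AGF+ KI/+ cells and 22.7 to 26.5 CPM in LN AGF+ AireKO cells. In BM AGF+ cells Aire ran at 79.3 to 115 CPM in KI/+ and 11.5 to 19.6 CPM in AireKO cells. The summed level of 10 genes that define conventional DCs was high in all 21 libraries, at 5360 to 11022 CPM. The 7 libraries numbered 2, 1 in each group, held 2021 to 3993 CPM of Xist and 0 to 0.766 CPM of Y-linked genes, against 0 to 31.1 CPM and 329 to 566 CPM in the other 14, which goes against their label as male. Results are therefore also given without the libraries numbered 2 where that changes a call.

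Klrc1 encodes the inhibitory receptor NKG2A and Klrc2 the activating receptor NKG2C, which share the partner CD94 (Klrd1). They are printed together because their transcripts are alike enough that reads of 1 may be counted for the other. The stretch below, from the 3' part of each coding sequence in GENCODE vM21 on GRCm38, holds 120 bases with 2 differences, which are in capitals.

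Klrc1: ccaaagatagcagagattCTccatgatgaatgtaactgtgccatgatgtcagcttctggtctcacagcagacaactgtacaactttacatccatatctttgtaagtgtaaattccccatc
Klrc2: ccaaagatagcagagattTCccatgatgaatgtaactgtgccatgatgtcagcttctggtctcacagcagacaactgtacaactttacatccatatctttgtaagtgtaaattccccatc

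It covers positions 613 to 732 of the Klrc1 coding sequence and 595 to 714 of the Klrc2 coding sequence. Over 712 aligned coding bases the pair was 84.3% identical. Klrc2 and its neighbour Klrc3 were 96.1% identical over 663 bases. Of the 150-base windows of their transcripts, a length equal to 1 read, 4.32% for Klrc1 and 2.48% for Klrc2 occurred unchanged in another gene. For Klrb1c the share was 8.73%, all with the predicted gene Gm44511, which overlaps 413 of its exon bases on the same strand. The other 7 members had none, although 118 exon bases of Eomes lie opposite the antisense gene Gm33460. The sources used here do not say how the authors' counting treated strand and reads that match several genes, so the split among Klrc1, Klrc2 and Klrc3, and the level of Klrb1c, are uncertain to that extent.

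The sequences just before the transcription starts of Ncr1, Gzma, Gzmb and Prf1 are shown because these genes stand for the receptors and the granule proteins whose levels moved together in LN, while Gzma and Gzmb departed from the rest in BM. They are the RefSeq reference (GRCm38.p6), the 250 bases before the RefSeq start on the gene's own strand, ended earlier, as for Prf1, where an annotated exon begins before that start. Capitals mark TGTGGT or its reverse complement ACCACA, the core recognised by Runt factors such as Runx3, an NK cell regulator. The windows are Ncr1 at chr7:4337465-4337714 (plus strand), Gzma at chr13:113100982-113101231 (minus strand), Gzmb at chr14:56262335-56262584 (minus strand) and Prf1 at chr10:61297586-61297832 (plus strand).

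Ncr1: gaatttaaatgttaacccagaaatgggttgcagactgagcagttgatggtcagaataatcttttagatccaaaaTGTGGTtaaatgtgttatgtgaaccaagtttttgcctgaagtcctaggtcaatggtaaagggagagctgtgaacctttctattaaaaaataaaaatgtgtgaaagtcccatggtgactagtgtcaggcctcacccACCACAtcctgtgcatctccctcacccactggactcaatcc
Gzma: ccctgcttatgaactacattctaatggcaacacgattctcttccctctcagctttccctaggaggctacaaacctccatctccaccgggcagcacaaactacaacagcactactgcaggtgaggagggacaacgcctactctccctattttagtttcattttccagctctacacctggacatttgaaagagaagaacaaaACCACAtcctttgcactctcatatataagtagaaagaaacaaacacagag
Gzmb: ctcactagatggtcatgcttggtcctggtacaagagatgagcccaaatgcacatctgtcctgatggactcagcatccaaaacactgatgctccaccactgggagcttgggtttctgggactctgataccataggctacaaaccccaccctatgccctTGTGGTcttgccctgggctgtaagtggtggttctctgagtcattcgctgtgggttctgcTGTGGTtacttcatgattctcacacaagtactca
Prf1: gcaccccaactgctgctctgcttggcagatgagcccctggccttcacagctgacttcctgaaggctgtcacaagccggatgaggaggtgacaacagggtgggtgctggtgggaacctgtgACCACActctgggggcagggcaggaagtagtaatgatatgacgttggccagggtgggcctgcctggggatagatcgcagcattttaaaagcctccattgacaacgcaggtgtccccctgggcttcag

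Searched on both strands, TGTGGT was found in the 250-base windows of 8 of the 10 genes, all except Eomes and Tbx21, and in 14% of 32851 such RefSeq windows. The T-box core GGTGTG was found for 1 of the 10, Nkg7, and in 16.3% of windows. The longer T-box sequence AGGTGTGA, which contains that core, occurred in 1.12% of windows and again for Nkg7 alone among the 10. Of the sequences searched, TGTGGT, the one marked above, had matches in the most of the 10 genes, so its share is a description. These are matches of letters, not binding sites, and windows of genes that lie close together can overlap.

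In LN, AGF+ cells held less of all 10 genes than AGF- cells did in both genotypes, and 9 of them were close to 0 in AGF+ cells. The exception was Tbx21, which stayed at a few CPM. In BM the order was reversed for Gzma, Gzmb and Eomes, which were higher in AGF+ cells than in total DCs. The receptors Ncr1, Klrb1c, Klrc1 and Klrc2 were close to 0 in all 9 BM libraries. No genotype difference was called for the 10 genes in LN or for the 3 that passed the filter in BM. The other members were not tested for genotype in BM. Without the filter on low counts, calls appeared for Ncr1 and Gzmb in LN AGF- cells and for Gzma in BM AGF+ cells. These are bulk samples, so fewer cells of a type and less RNA per cell cannot be told apart.

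**Figure D1:**
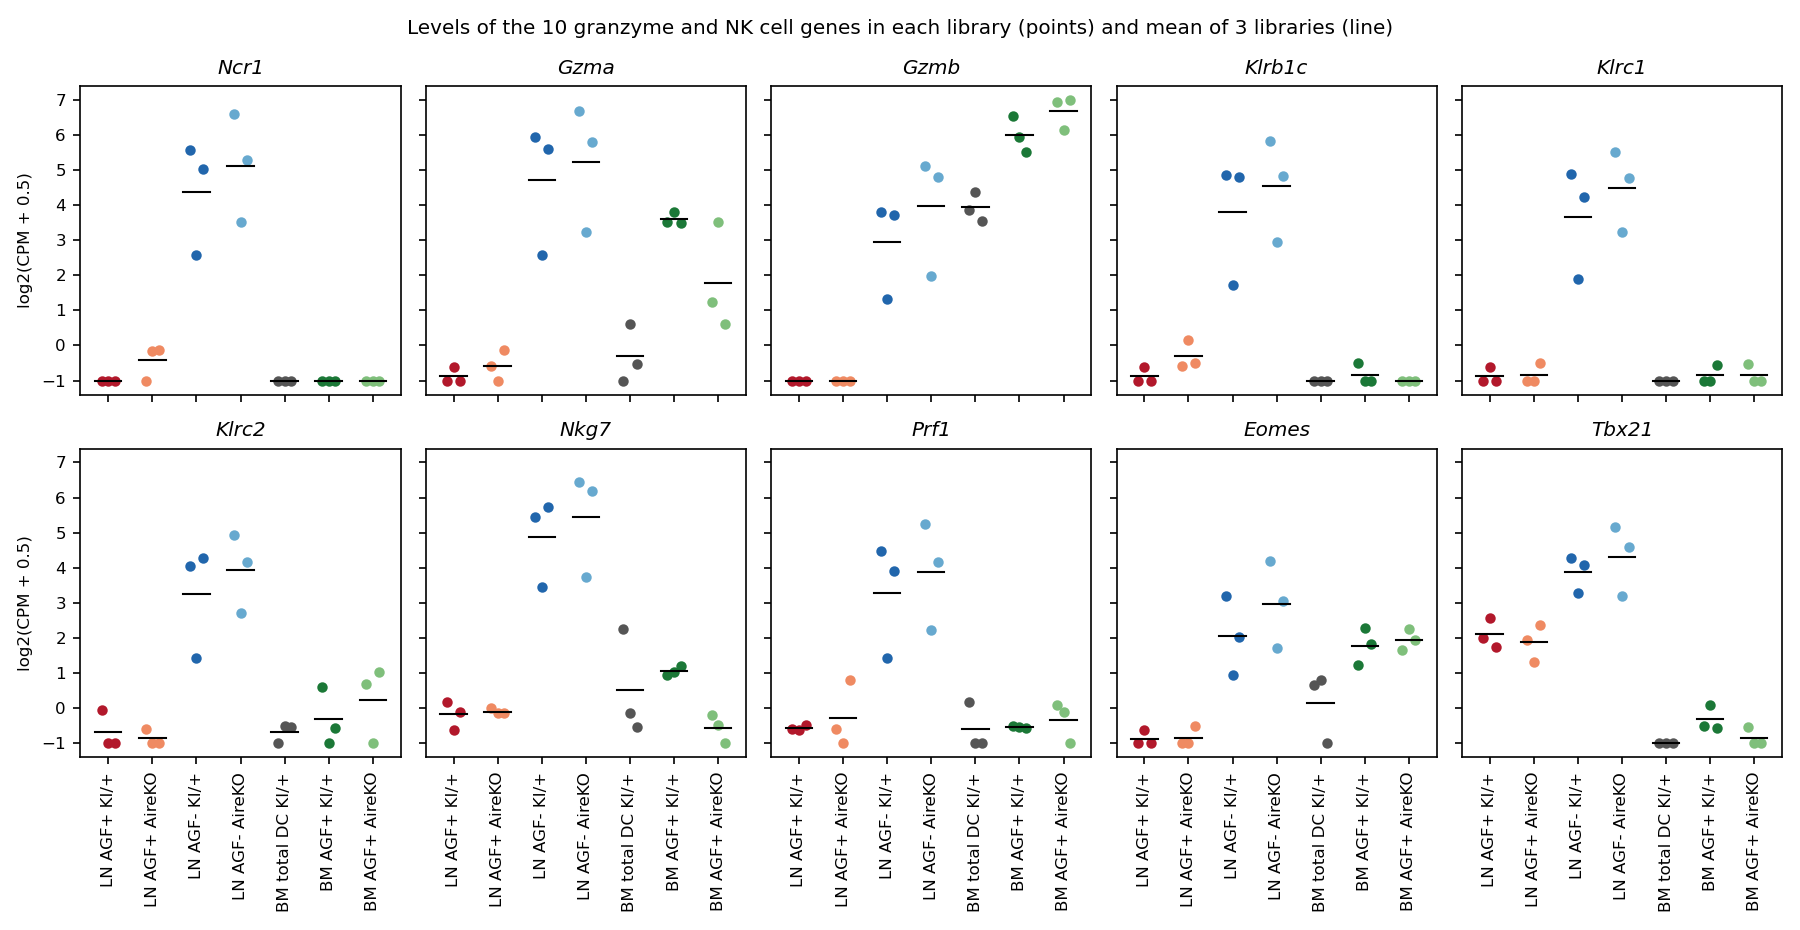
Level of each gene, as log2(CPM + 0.5), in each of 21 libraries (points) with the mean of the 3 log values per group (lines). A point at -1 is a library with no count. Ncr1, Klrb1c and Klrc1 sit near that line except in the 6 LN AGF- libraries. Prf1 does so too, apart from 1 LN AGF+ AireKO library at 1.23 CPM. Gzmb is highest in BM AGF+ cells, and 1 library per LN AGF- group lies below the other 2.

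The receptors were tested first. Ncr1 (chr7:4337724-4345164, GRCm38) encodes NKp46, an activating receptor used to define NK cells. Its level was 46.6, 5.45 and 31.7 CPM in LN AGF- KI/+ libraries 1 to 3, and 95.8, 10.9 and 38.1 CPM in the AireKO ones. In LN AGF+ cells it had no count in the 3 KI/+ libraries and 0, 0.40 and 0.41 CPM in the AireKO libraries, so sorts did not overlap. With 0 counts against 387 in KI/+ cells it was at least 159-fold lower, counting 3 counts over the group as the floor, and with 4 against 772 in AireKO cells it was 188-fold lower (95% counting interval 73.0 to 691). The edgeR quasi-likelihood test with Benjamini-Hochberg adjustment over all genes gave adjusted p = 0.00191 in KI/+ and 0.000987 in AireKO cells.

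Klrb1c (chr6:128778485-128789215) encodes NK1.1, the surface marker of NK cells in C57BL/6 mice. It measured 28.2, 2.82 and 27.3 CPM in LN AGF- KI/+ cells and 56.2, 7.26 and 28.0 CPM in AireKO cells. In LN AGF+ cells it ran from 0 to 0.15 CPM in KI/+ and from 0.17 to 0.60 CPM in AireKO libraries. The ratio of 1 to 270 counts in KI/+ cells was 333-fold (59.2 to 13195), and that of 5 to 487 in AireKO cells 94.7-fold (40.3 to 293). No AGF+ library reached the level of the lowest AGF- library.

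Klrc1 (chr6:129666015-129678973) measured 28.8, 3.23 and 18.2 CPM in LN AGF- KI/+ cells and 44.6, 8.81 and 26.8 CPM in AireKO cells, with 1 count over the 3 AGF+ libraries of each genotype. Klrc2 (chr6:129647496-129660689) measured 16.2, 2.22 and 18.8 CPM and 30.2, 6.05 and 17.5 CPM, with 3 AGF+ counts in KI/+ and 1 in AireKO cells. Both receptors were thus lower in AGF+ cells by 71.1-fold (23.9 to 348, Klrc2 in KI/+) to 416-fold (74.3 to 16478, Klrc1 in AireKO), each ratio resting on 3 counts or fewer. Library 2 was the lowest of the 3 AGF- libraries for both genes in both genotypes.

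Among the granule proteins, Gzma (chr13:113093825-113100981), a trypsin-like granzyme, was at 61.0, 5.45 and 47.8 CPM in the LN AGF- libraries of KI/+ mice and 101, 8.81 and 55.2 CPM in those of AireKO mice. It had 1 count over the KI/+ AGF+ libraries and 3 over the AireKO ones. It was lower in AGF+ cells by 651-fold (116 to 25758) in KI/+, adjusted p = 0.00101 in edgeR, and 284-fold in AireKO cells, adjusted p = 0.000557.

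Gzmb (chr14:56258838-56262260) encodes granzyme B, which cleaves caspases and their substrates. It measured 13.3, 2.02 and 12.7 CPM in LN AGF- KI/+ cells and 34.2, 3.45 and 27.4 CPM in AireKO cells. No LN AGF+ library of either genotype held a single count. It was at least 53.4-fold lower in KI/+ and at least 112-fold lower in AireKO cells, adjusted p = 0.00875 and 0.00229 in edgeR.

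Prf1 (chr10:61297833-61304680), the pore-forming perforin, measured 22, 2.22 and 14.4 CPM in LN AGF- KI/+ cells and 37.5, 4.15 and 17.5 CPM in AireKO cells. Its AGF+ levels were 0.15 to 0.22 CPM in KI/+ and 0 to 1.23 CPM in AireKO libraries, all below the AGF- libraries of the same genotype. Nkg7 (chr7:43437073-43438249), a granule membrane protein needed for release, measured 43.0, 10.5 and 52.8 CPM in LN AGF- KI/+ cells and 87.0, 12.8 and 72.1 CPM in AireKO cells. Its AGF+ libraries held 0.15 to 0.63 CPM in KI/+ and 0.40 to 0.50 CPM in AireKO cells. The 7 Nkg7 counts in each AGF+ group gave its ratio a narrower counting interval than those of most members. The ratio was 87.4-fold (42.1 to 218) in KI/+ and 127-fold (61.2 to 316) in AireKO cells, with edgeR adjusted p = 0.000331 and 0.00011. In LN, Nkg7 reached the filter level only in AGF- libraries and had to differ, so these p values describe and do not support.

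The transcription factors did not move by the same amount. Eomes (chr9:118478212-118486132) measured 8.65, 1.41 and 3.59 CPM in LN AGF- KI/+ cells and 17.7, 2.76 and 7.77 CPM in AireKO cells, against 1 count in each AGF+ group. Tbx21 (chr11:97098071-97115331) was 18.9, 9.28 and 16.3 CPM in LN AGF- KI/+ cells and 35.1, 8.64 and 23.5 CPM in AireKO cells. In AGF+ cells the Tbx21 levels of the KI/+ libraries were 3.47, 5.47 and 2.84 CPM and those of the AireKO libraries 3.34, 2.01 and 4.71 CPM. Sorts did not overlap for Tbx21, yet its difference was 3.61-fold (2.75 to 4.80) in KI/+ and 6.59-fold (4.93 to 8.96) in AireKO cells. The fitted log2 difference was -1.88 ± 0.47 (SE, n = 3 against 3, edgeR adjusted p = 0.0111) in KI/+ and -2.73 ± 0.48 (SE, n = 3 against 3, edgeR adjusted p = 0.000888) in AireKO cells.

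In all, 10 of 10 genes were called lower in KI/+ cells, where 11% of 15884 tested genes were called lower, and 10 of 10 in AireKO cells, where 13.3% were. Replicates did not overlap for 10 of 10 in each genotype, against 19.1% and 19.2% of tested genes lower without overlap. The median fitted log2 difference over the 10 was -7.04 in KI/+ and -7.20 in AireKO cells, or -6.21 and -6.87 with genes at 0 set to their bound, against 0.01 over all tested genes in both. For 9 of the 10, no LN AGF+ library reached the 2.06 CPM at which a library counts toward the expression filter. Those genes passed through the AGF- groups alone and had to differ, so their count and their adjusted p values describe and do not support. Fitted values of genes with 3 counts or fewer in a group, 8 of 10 in KI/+ and 5 of 10 in AireKO cells, depend on the prior count of the fit. The calls also depend on the test: limma voom called 2 of 10 in KI/+ cells (Eomes, adjusted p = 0.0405, and Tbx21, 0.0411, with the others at 0.0539 to 0.149) and 6 of 10 in AireKO cells. Without the libraries numbered 2, edgeR called 10 of 10 lower in both genotypes.

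**Figure D2:**
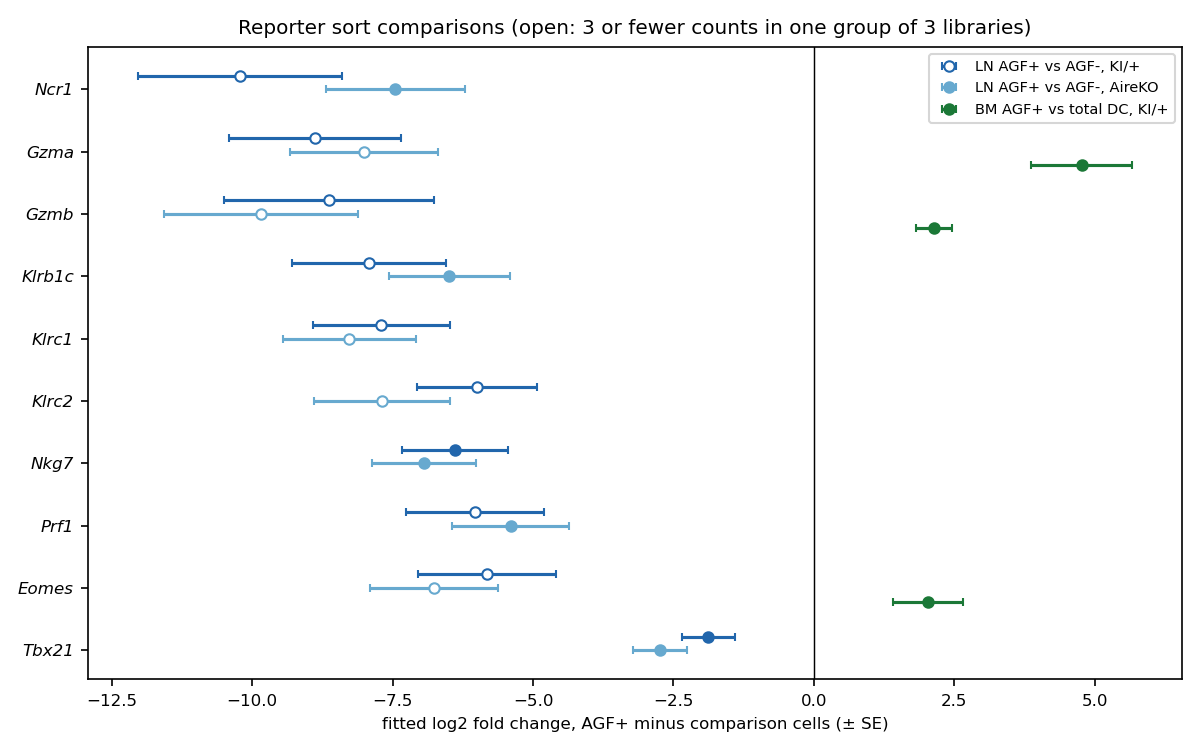
Fitted log2 fold change between AGF+ cells and their comparison cells, with its SE (bars), for the 2 LN comparisons (blue) and the BM comparison (green). Open points have 3 or fewer counts in 1 of the groups. All LN points lie below 0, with Tbx21 nearest to it at -1.88 and -2.73, and the 3 genes tested in BM lie above 0, at 2.03 to 4.77.

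Within the LN AGF- sort the 10 genes varied widely between libraries, and they varied together. In both genotypes library 2 was the lowest of the 3 for 10 of 10 genes. Its level was 0.10 to 0.528 of the mean of libraries 1 and 3 in KI/+ cells and 0.112 to 0.295 in AireKO cells. The sum of the 10 genes was 287, 44.6 and 243 CPM in KI/+ libraries 1 to 3 and 539, 73.6 and 314 CPM in AireKO libraries. Across the 6 AGF- libraries the highest value was that of AireKO library 1 for all 10 genes. The ratio of highest to lowest was 4.06 for Tbx21, 8.29 for Nkg7 and 12.6 to 19.9 for the other 8. Their proportions were not fixed. The ratio to Ncr1 in these 6 libraries ranged least for Prf1, from 0.381 to 0.471, more for Gzmb, from 0.286 to 0.719, and most for Tbx21, from 0.366 to 1.70.

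Marker lists of other cells did not all follow library 2. The 14 T cell genes were also lowest there, with 412, 213 and 575 CPM in KI/+ libraries and 521, 211 and 589.5 CPM in those of AireKO mice. The 10 B cell genes were not, with 807, 1613 and 1089 CPM in KI/+ libraries and 1029, 1625 and 2053 CPM in those of AireKO mice. The conventional DC genes summed to 11022, 10236 and 9712 CPM in KI/+ libraries and 9663, 9849 and 10097 CPM in those of AireKO mice, nearly level. Library 2 of each LN AGF- group is also 1 of the 7 libraries with Xist counts, so whatever sets the libraries numbered 2 apart cannot be told apart from the low NK gene level, and its part was not tested.

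**Figure D3:**
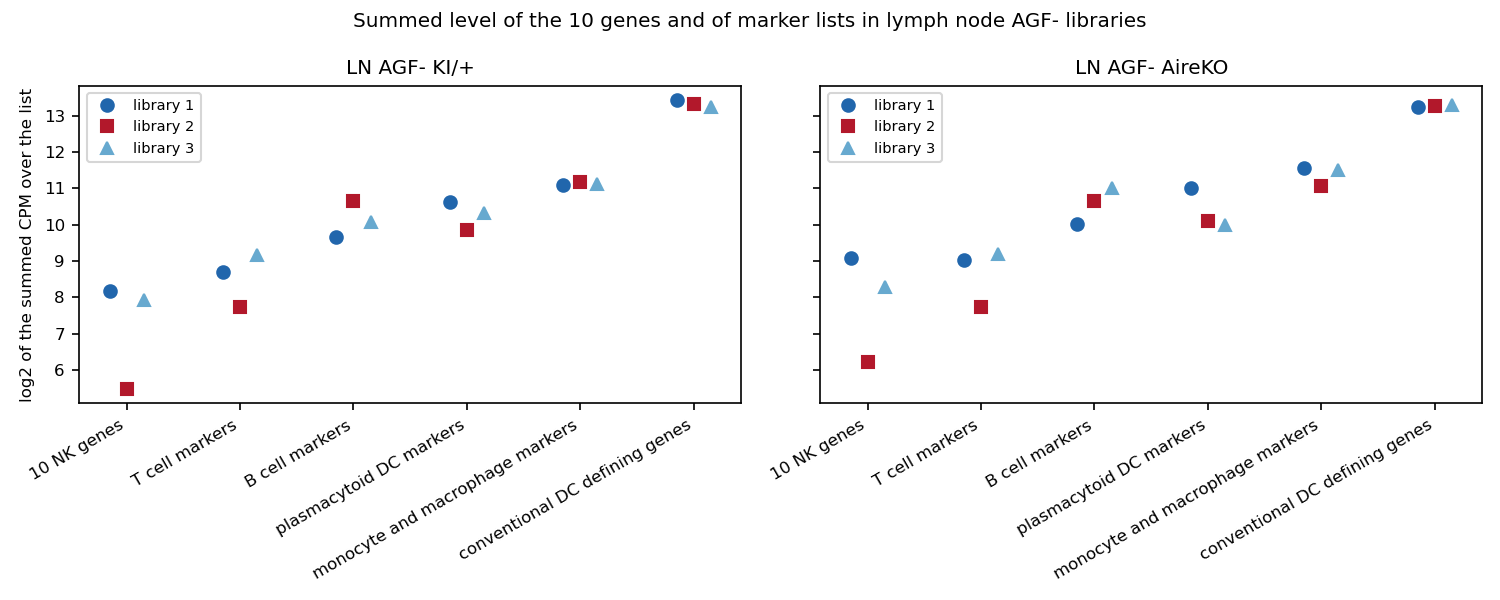
Summed level of the 10 NK genes and of 5 marker lists, as log2 of the summed CPM, in libraries 1, 2 and 3 of the LN AGF- groups, KI/+ on the left and AireKO on the right. Library 2 (red squares) is lowest for the NK genes and the T cell markers in both panels, and the conventional DC genes are nearly level.

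The AGF sorts also differed in other cells' genes, which are given here beside the NK genes. In KI/+ cells the T cell list summed to 294 to 504 CPM in LN AGF+ and 213 to 575 CPM in AGF- libraries, with no gene of the list at 0 in all libraries of either group. Of its 14 genes 10 were lower and 1 (Tcf7, log2 difference 1.32) higher in AGF+ cells. The B cell list summed to 187 to 227 CPM against 807 to 1613 CPM, and 9 of 10 genes were lower. Monocyte and macrophage genes were lower for 10 of 10. Over all tested genes 11% were lower and 10.1% higher in KI/+ cells. The part of these other cells in the NK gene difference was not tested.

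The other genes of the NK programme, from lists set up alongside the 10, fell into unlike groups. Of 34 other NK receptor genes 29 were tested in LN, and AGF+ cells were lower for 20 of them in KI/+ and 25 in AireKO cells, higher for none. Over all tested genes 11% and 13.3% were lower and 10.1% and 11.4% higher, and the counts of the other lists in LN are to be read against these shares. List genes near 0 in AGF+ cells passed the filter through AGF- cells, so these counts describe and do not support. The KI/+ calls with the smallest p were Klrd1 (CD94), Cd244a (2B4), Klrk1 (NKG2D) and Il2rb, a chain of the IL-2 and IL-15 receptors. Klrd1 was not near 0 in AGF+ cells: it held 24.8 CPM there against 67.7 CPM in AGF- KI/+ cells, a log2 difference of -1.45 ± 0.15 (SE, edgeR adjusted p = 1.64e-05). Cd244a was at 19.2 against 91.5 CPM (-2.25 ± 0.27), Klrk1 at 6.24 against 50.2 CPM (-3.00 ± 0.42), and Il2rb at 1.96 against 98.4 CPM (-5.68 ± 0.82). Some receptors of the list were thus present in AGF+ cells in which Klrc1 and Klrc2, the partners of Klrd1, had 1 and 3 counts.

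A few receptors, chosen after their values were seen, stood at similar levels in both LN sorts. Slamf7 was at 329 CPM in AGF+ and 416 CPM in AGF- KI/+ cells, a log2 difference of -0.34 ± 0.14 that was not called (edgeR adjusted p = 0.0978). Il12rb2, a chain of the IL-12 receptor, was at 28.5 and 21 CPM (0.44 ± 0.16, adjusted p = 0.0747 in edgeR). A p that misses the threshold does not show equal levels.

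**Figure D4:**
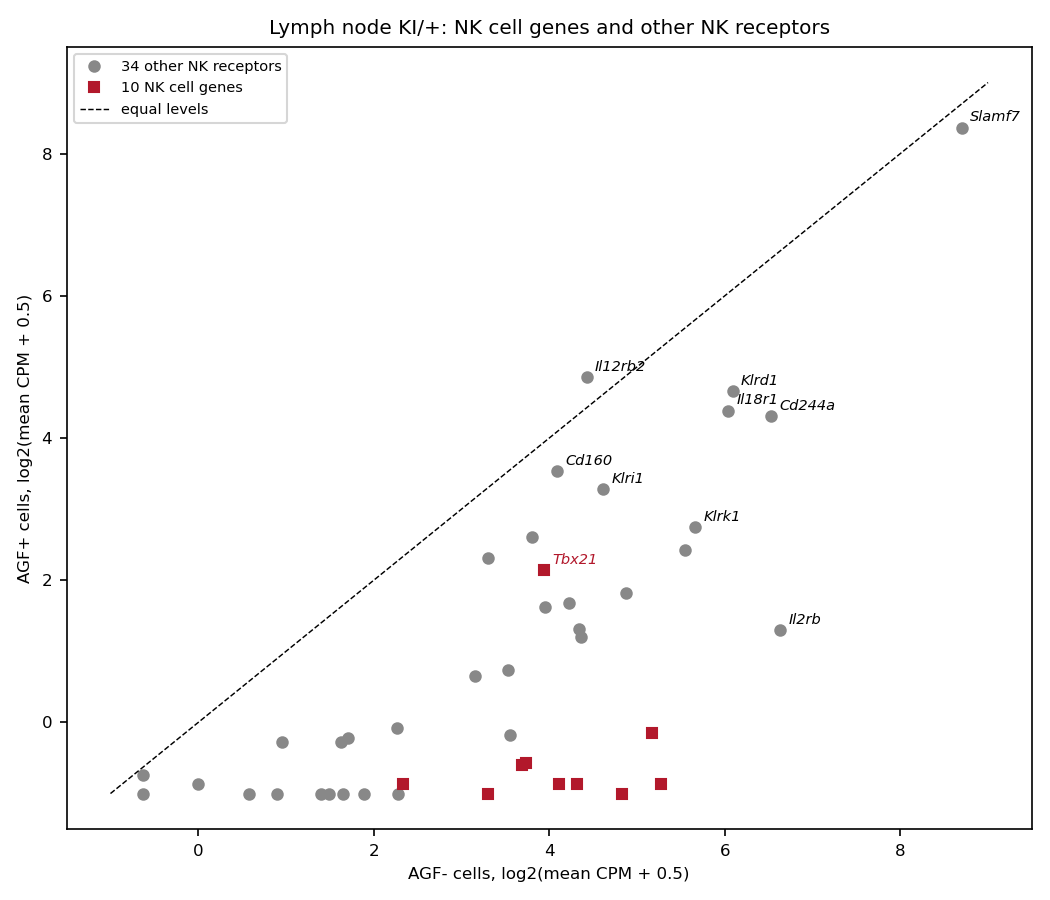
Mean level in LN AGF+ cells (vertical) against LN AGF- cells (horizontal), both as log2(mean CPM + 0.5) in KI/+ mice, for the 10 genes (red squares) and 34 other NK receptor genes (grey circles). The dashed line marks equal levels. All 10 squares lie below it, 9 of them at the bottom, while Slamf7, Klrd1 and Il12rb2 are well above the bottom.

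Receptor adaptors were lower for 8 of 12 tested genes in each genotype and higher for none. Tyrobp (DAP12), which myeloid cells also use, was at 124 CPM in LN AGF+ and 195 CPM in AGF- KI/+ cells, a log2 difference of -0.65 ± 0.16. Zap70, a kinase of T and NK cells, differed by -3.92. Of 12 tested transcription factors of NK and other innate lymphoid cells, 7 were lower in KI/+ and 6 in AireKO cells, led by Ikzf3 at 7.58 against 104 CPM (-3.80 ± 0.28 in KI/+ cells).

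Genes that build and release granules did not follow the granule contents. Of 12 tested, 1 was lower and 2 were higher in KI/+ cells, and 2 were lower and 2 higher in AireKO cells, near the shares over all genes, with a median log2 difference of -0.09 and -0.04. Ctsc, which encodes the protease that activates granzymes, was lower in KI/+ cells (-0.73 ± 0.17). Unc13d (0.48 ± 0.14) and Rab27a (0.50 ± 0.15), which serve granule docking and priming, were higher. Lysosome-related organelles of many cells use these genes, myeloid cells included. Of the 8 other granzyme genes only Gzmc passed the filter in LN. It had no count in any LN AGF+ library, 20 counts in AGF- KI/+ and 40 in AGF- AireKO cells. It was called lower in AireKO (edgeR adjusted p = 0.0326) but not in KI/+ cells (0.0781). Gzmc passed through the AGF- groups alone and had to differ, so this call describes and does not support.

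Inhibitors, effector molecules and ligands complete the pathway. Of 7 serpins that inhibit granzymes or related proteases, 2 were lower in LN AGF+ KI/+ cells, Serpinb1a at 6.27 against 27.4 CPM (-2.15 ± 0.22) and Serpinb9b (-3.08 ± 0.74), and 1, Serpinb1a, in AireKO cells. Serpinb9, the inhibitor of granzyme B, chosen after its values were seen, was at 140.3 against 166 CPM and was not called (edgeR adjusted p = 0.574). Of 9 effector ligands and cytokines 4 were lower in KI/+ and 6 in AireKO cells, with none higher. Of 14 ligands of NK receptors 3 were lower and 3 higher in KI/+ cells, and 4 and 3 in AireKO cells. Markers of ILC2 and ILC3, innate lymphoid cells related to NK cells, summed to 404 to 446 CPM in LN AGF+ and 397 to 576 CPM in AGF- KI/+ cells, with 2 of 5 tested genes lower. Plasmacytoid DC markers were lower for 6 of 10 and higher for 1, and 1 of 10 granulocyte and mast cell markers was tested, Prg2, which was higher in AGF+ cells at 7.90 against 0.64 CPM. Cma1 of the same list, chosen after its values were seen, had 0 counts in AGF+ and 16 in AGF- KI/+ cells.

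In LN AGF- cells edgeR called 0 of 10 between AireKO and KI/+, with 0 at an unadjusted p under 0.05 and 0 by DESeq2 and limma voom, and 0.0063% of all tested genes were called. All 10 fitted values were above 0, at log2 differences of 0.52 to 1.20, and replicates overlapped for all 10, where 4.46% of tested genes were lower and 4.5% higher without overlap. For Gzmb the group means were 21.7 ± 16.1 CPM (SD, n = 3) in AireKO and 9.34 ± 6.35 CPM (SD, n = 3) in KI/+ cells, a log2 difference of 1.20 with a 95% interval of -0.52 to 2.92. For Ncr1 the means were 48.2 ± 43.3 CPM (SD, n = 3) and 27.9 ± 20.8 CPM (SD, n = 3), a log2 difference of 0.78 with an interval of -0.81 to 2.38. For both genes the libraries of 1 genotype differed by more than the group means did. The genes varied together across these libraries, so their common direction is not 10 separate observations. Without the filter on low counts Ncr1 (edgeR adjusted p = 0.0369) and Gzmb (0.0070) were called higher in AireKO cells, and 270 genes in all were called instead of 1.

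In LN AGF+ cells edgeR likewise called 0 of 10 between genotypes, with 0 at an unadjusted p under 0.05 and 0 by DESeq2 and limma voom, against 0.0126% of all tested genes. Tbx21, the member with enough counts to compare, was at 3.35 ± 1.35 CPM (SD, n = 3) in AireKO and 3.93 ± 1.38 CPM (SD, n = 3) in KI/+ cells, a log2 difference of -0.26 with an interval of -1.49 to 0.96. That value was 0.31 without the libraries numbered 2. Klrb1c was the 1 gene of the 10 without overlap, higher in AireKO cells at 5 counts against 1, and 5.3% of tested genes were higher without overlap. The highest KI/+ library (0.152 CPM) and the lowest AireKO library (0.167 CPM) held 1 count each, so the gap between them reflects library size. The difference between genotypes of the sort effect, an interaction term, was called for 0 of 10, with 0 at an unadjusted p under 0.05 and 0 by DESeq2 and limma voom, and for 0.0063% of all genes.

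In BM the granzymes Gzma and Gzmb parted from the receptors. The 4 receptors stayed at or near 0 in all 9 libraries: Ncr1 had no count, Klrb1c and Klrc1 did not exceed 0.20 CPM, and Klrc2 did not exceed 1.53 CPM. Gzmb, in contrast, was at 14.1, 20.3 and 11.2 CPM in total DCs and 92.8, 60.3 and 44.9 CPM in AGF+ KI/+ cells, with no overlap. Its ratio was 4.30-fold (counting interval 3.72 to 4.99), a fitted log2 difference of 2.14 ± 0.33 (SE, n = 3 against 3, edgeR adjusted p = 0.000369). Gzma was at 0, 1.02 and 0.19 CPM in total DCs and 10.8, 13.4 and 10.7 CPM in AGF+ KI/+ cells, 28.6-fold higher (12.9 to 79.0), with a log2 difference of 4.77 ± 0.90 (SE, edgeR adjusted p = 0.00137). Without total DC library 2 the log2 difference was 6.54, and without all libraries numbered 2 it was 6.44, both called.

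Eomes was at 1.07, 1.23 and 0 CPM in total DCs and 1.84, 4.40 and 3.03 CPM in AGF+ KI/+ cells, 4.18-fold higher (2.14 to 8.91), with a log2 difference of 2.03 ± 0.62 (SE, edgeR adjusted p = 0.0200). Its call was lost without AGF+ KI/+ library 2 (1.70, adjusted p = 0.0822 in edgeR), without all libraries numbered 2 (2.24, adjusted p = 0.0980) and with all 21 libraries in the fit (adjusted p = 0.0588). These were the 3 members that passed the filter in BM, and 3 of 3 were called higher, where 23% of 15503 tested genes were called higher and 26.1% were higher without overlap. Gzma and Eomes passed that filter through the AGF+ groups alone and had to differ, so their count describes and does not support.

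The 7 members below the filter in BM are given by their counts. Tbx21 had 5 counts in AGF+ KI/+ and none in total DC libraries, at least 1.56-fold higher and without overlap. Nkg7 had 25 against 23 counts, of which total DC library 1 held most, at 4.26 CPM against 0.41 and 0.19 CPM in libraries 2 and 3. Klrc2 had 6 against 2, Prf1 3 against 3, and Ncr1, Klrb1c and Klrc1 had at most 1 count in either group. BM AGF+ KI/+ cells thus held 1022 counts of Gzmb beside 3 of perforin and 8 over the 4 receptors.

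Genes around the granzymes were tested in the same comparison. Gzmc had 39 counts in BM AGF+ KI/+ cells and 3 in total DCs, a log2 difference of 3.47 ± 0.64 (SE, edgeR adjusted p = 0.00123). It passed the filter through the AGF+ groups alone and had to differ, so this call describes and does not support. Of 12 genes of granule building and release, AGF+ cells had 3 higher and 4 lower, near the 23% and 21.3% of all tested genes. Rab27a was at 346 against 149 CPM (1.23 ± 0.09), Lyst higher by 1.97 ± 0.16 and Ctsw, a cathepsin of cytotoxic cells, by 2.24 ± 0.28, while Lamp2 differed by -0.69. Of 18 other NK receptors 6 were higher and 7 lower, read against the same shares. Cd96 was at 125 against 3.89 CPM (5.02 ± 0.26, edgeR adjusted p = 3.78e-07), and Fcgr3, a receptor for antibody that myeloid cells also carry, differed by -4.58. Of 6 effector ligands 5 were lower, and Tnfsf10 (TRAIL), a death ligand, was higher at 54.6 against 6.31 CPM (3.12 ± 0.35).

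Markers of other cells moved with the sort in BM. The plasmacytoid DC list summed to 1896 to 1911 CPM in AGF+ KI/+ cells and 785 to 1090 CPM in total DCs, with 8 of 10 genes higher. Over all tested genes 23% were higher. The T cell list summed to 491 to 627 against 72.3 to 163 CPM, with Trbc1 and Trbc2 at 0 in both groups, and the B cell list to 629 to 732 against 55.0 to 119 CPM. Monocyte and macrophage genes summed to 112 to 208 against 1081 to 1563 CPM. Their part in the granzyme difference was not tested. In the same libraries Ncr1 and Klrb1c were at 0 to 0.20 CPM.

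Between genotypes in BM AGF+ cells, edgeR called 0 of the 3 members tested, with 1 (Gzmb) at an unadjusted p under 0.05 and 0 by DESeq2 and limma voom, against 0.0129% of tested genes. Gzmb was at 122, 69.2 and 126 CPM in AireKO cells and 92.8, 60.3 and 44.9 CPM in KI/+ cells, so the groups overlapped. Its log2 difference was 0.68 ± 0.30, with a 95% interval of -0.04 to 1.41 (edgeR unadjusted p = 0.0410, adjusted p = 1.00). Gzma was at 1.88, 10.9 and 1.02 CPM in AireKO cells, of which libraries 1 and 3 lay below and library 2 within the KI/+ range of 10.7 to 13.4 CPM. Its log2 difference was -1.32 ± 0.61 (interval -2.81 to 0.18), and -2.94 without AireKO library 2, not called either (edgeR adjusted p = 0.23). Without the filter on low counts Gzma was called lower in AireKO cells (edgeR adjusted p = 0.0184), when 26 genes in all were called instead of 2.

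Eomes was at 2.63, 4.27 and 3.31 CPM in AireKO cells, close to its KI/+ levels, with a log2 difference of 0.13 (interval -1.05 to 1.31). Nkg7, below the filter, had 3 counts in AireKO and 25 in KI/+ cells, 7.38-fold lower (2.25 to 38.2) and without overlap, where 3.49% of tested genes were lower without overlap.

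Set side by side, AGF+ cells of LN and BM shared low levels of the receptors Ncr1, Klrb1c, Klrc1 and Klrc2. LN and BM AGF+ cells differed in Gzma, Gzmb, Eomes and Tbx21. They were sorted by different gates, so tissue and gate cannot be told apart, in AireKO cells as in KI/+ cells. In KI/+ cells, Gzmb had 0 counts in LN and 1022 in BM AGF+ libraries, at least 379-fold lower in LN. Gzma had 1 against 183 counts, 204-fold lower (36.1 to 8082), and Eomes 1 against 49, 54.5-fold lower (9.33 to 2196). The Gzma call was lost with limma voom (adjusted p = 0.0635). Tbx21 went the other way, at 71 against 5 counts, 12.8-fold higher in LN (5.22 to 40.5), with a log2 difference of 3.55 ± 0.74 (SE, edgeR adjusted p = 0.000499). So 3 of 10 were called lower in LN, where 27% of 17265 tested genes were, and 1 of 10 higher, where 27.2% were. The lower count was near its share and the higher count below its share, so neither sets the 10 genes apart. Replicates did not overlap for 4 lower genes, these 3 and Nkg7, and for Tbx21 higher, against 30.2% and 31.2% of tested genes.

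In AireKO cells the same 4 genes were called in the same directions, and 25.7% of all genes were called lower and 25.7% higher. Here too the counts do not set the 10 genes apart from all genes. Without overlap were 3 of 10 lower (31.5% of tested genes) and 3 higher (33.1%), of which Klrb1c and Nkg7 had 5 or 7 counts in LN and were not called. Gzmb had 0 against 1471 counts, at least 558-fold lower in LN, Gzma 3 against 65, 24.6-fold lower (8.07 to 123), Eomes 1 against 47, 53.5-fold lower, and Tbx21 53 against 1, 46.6-fold higher (8.01 to 1875). The Gzma call was lost without LN AGF+ AireKO library 1 (edgeR adjusted p = 0.0746), without library 2 of that group (0.0748) without BM AGF+ AireKO library 2 (0.256) and with limma voom (0.289). Klrc2, at 1 against 12 counts, was called lower in LN without the libraries numbered 2 (edgeR adjusted p = 0.0296).

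The comparison cells of the tissues differed too, and they were also sorted by different gates. In KI/+ mice 9 of 10 genes were higher in LN AGF- cells than in BM total DCs, where 28.8% of all genes were called higher, and the same 9 did not overlap, against 30.7% of all genes. Ncr1, Klrb1c, Klrc1, Klrc2 and Prf1 reached at most 1.53 CPM in BM, so they passed the filter through LN AGF- cells and had to differ, and the count describes and does not support. Tbx21 was at least 72.1-fold, Ncr1 at least 134-fold, Klrb1c at least 93.6-fold and Klrc1 at least 80.4-fold higher, all with no count in BM. The gene not called was Gzmb, at 9.34 ± 6.35 CPM (SD, n = 3) in LN and 15.2 ± 4.65 CPM (SD, n = 3) in BM, a log2 difference of -0.71 ± 0.64 (edgeR adjusted p = 0.358). That value was 0.04 without the libraries numbered 2, and without the filter on low counts Gzmb was called lower in LN (-0.69, edgeR adjusted p = 0.0104). Eomes, 5.95-fold higher, lost its call without LN AGF- KI/+ library 1 (edgeR adjusted p = 0.11) or BM total DC library 3 (0.0563).

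Whether the difference between the sorts was itself different in LN and BM was tested as an interaction in KI/+ cells. It was called for 5 of 10 genes, all with a lower value in LN, where 11.2% of all genes were called lower. Of these, Klrc2 and Nkg7 were low in BM and in LN AGF+ cells and entered through LN AGF- cells. Their terms follow from the LN difference. Gzma and Eomes reached the filter level of their tissue only in LN AGF- and BM AGF+ libraries, so the signs of their terms were fixed by the filter. The count of called genes therefore describes and does not support. The log2 terms were -13.63 for Gzma, -10.70 for Gzmb, -7.82 for Eomes, -7.34 for Klrc2 and -6.39 for Nkg7. For Gzma, Gzmb and Eomes the sort effect itself had opposite signs in LN and BM. Terms of genes at or near 0 in a group depend on the prior count of the fit, and BM sorts differed in gate. For Tbx21 the term was -5.70, not called (edgeR adjusted p = 0.0522), and the terms of Ncr1, Klrb1c, Klrc1 and Prf1, which had 0 to 3 counts in each BM KI/+ group, were not called. With the replicate number as a block, Klrc1 (edgeR adjusted p = 0.0267), Prf1 (0.0286) and Tbx21 (0.0459) were called as well, and without the libraries numbered 2 so was Klrb1c (0.0464).

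On a scale that allows genes to be compared, CPM per kilobase of exon, the make-up of the 10 genes was unlike in the groups. In LN AGF- KI/+ cells Nkg7 gave 29.7% of the summed level, Gzma 29.0% and Ncr1 13.9%, and in AireKO cells the same genes gave 29.9%, 26.1% and 15%. In LN AGF+ cells, where the sum was 2.22 in KI/+ and 2.54 CPM per kb in AireKO cells against 130 and 209 in AGF- cells, Tbx21 gave 71.0% and 53.0%. In BM total DCs Gzmb gave 81.1% of a sum of 13 CPM per kb. In BM AGF+ cells it gave 76.2% of 60.3 CPM per kb in KI/+ and 92.5% of 79.7 CPM per kb in AireKO cells, with Gzma next at 19.2% and 5.73%.

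**Figure D5:**
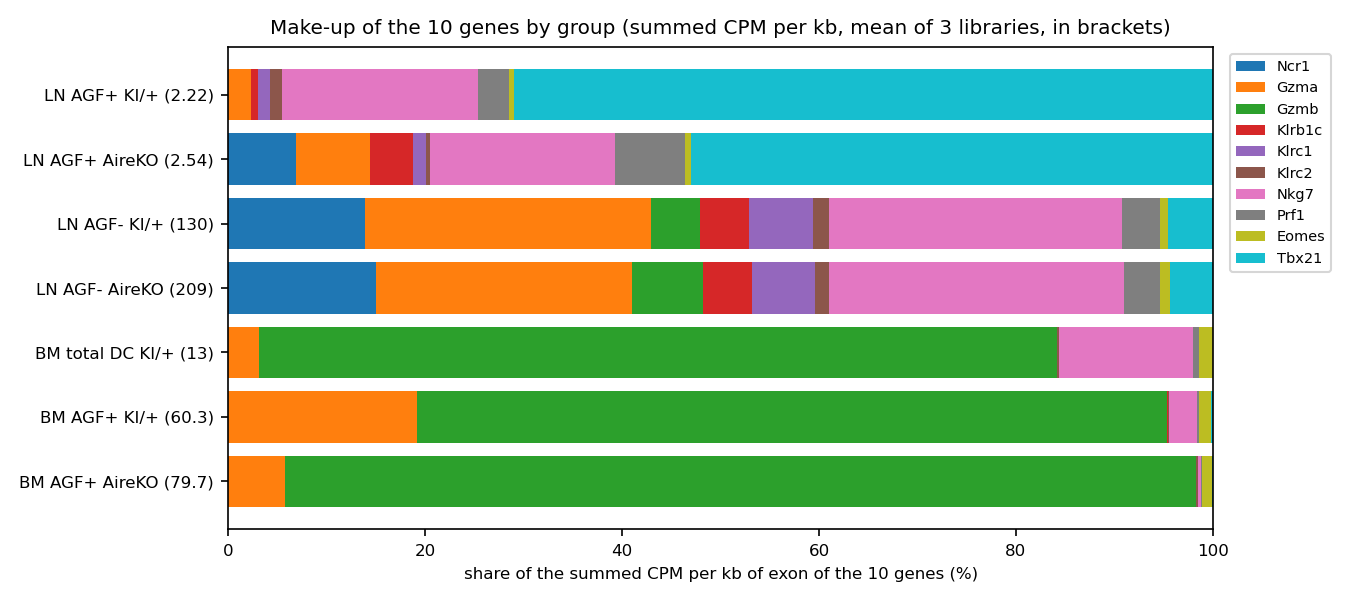
Share of each gene in the summed level of the 10 genes (CPM per kb of exon, mean of 3 libraries, percent) in each of 7 groups, with the sum in brackets. Tbx21 is the widest part of the bar in LN AGF+ cells (71.0% and 53.0%), Nkg7 and Gzma in LN AGF- cells, and Gzmb in BM cells (76.2% to 92.5%).

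Across the groups, LN AGF- AireKO cells had the highest mean for 9 of the 10 genes, followed by LN AGF- KI/+ cells, and these neighbours overlapped for all 9. Every LN AGF- KI/+ library lay above the next group for Ncr1, Klrb1c, Klrc1, Klrc2, Nkg7, Prf1 and Tbx21. For Gzma and Eomes, LN AGF- KI/+ cells overlapped with BM AGF+ cells. Gzmb had its own order: BM AGF+ AireKO and BM AGF+ KI/+ cells came first and overlapped, and every library of the latter lay above LN AGF- AireKO cells.

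The genes whose pattern was most like the 10 were sought among 12957 other expressed genes by Pearson correlation over 21 libraries with the mean standardised log2(CPM + 0.5) of the 10. The 10 closest were Samd3 (r = 0.98), Il2rb, Slc27a6, Sytl2, Xcl1 and Klra7 (each 0.97), and Klra4, Hs3st1, Olfr60 and Shank2 (each 0.96). The points share libraries and their depth, so the values are a description. Of these 10 genes, 3 were in the list of other NK receptors. A pseudocount of 2 kept 8 of the 10, and the 12 LN libraries alone kept 3. Among the 10 NK genes themselves the correlation with their own mean was 0.34 for Gzmb, 0.72 for Tbx21, 0.82 for Eomes and 0.90 to 0.97 for the other 7 over all libraries, and 0.97 to 1.00 for all 10 within LN.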

How the data were processed

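RNA from sorted DCs was made into Ovation SoLo libraries from 1.0 ng of RNA (integrity above 7) and read paired-end at 150 bp, per the labels' protocols. Per the submitters' processing notes, the tools were HTSeq 0.11.2, edgeR 3.38.1, STAR 2.7.3a, fastp 0.20.0, Picard 2.21.1 and SAMtools 1.9, on mm10. The sources used here do not give the annotation release or strand setting. The authors deposited a table of raw read counts for 55471 genes in 21 libraries, and all values come from it; their normalized table was not used. Genes without a symbol in GENCODE vM21 (327, 0.0139% of counts) stayed in the fits.

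The 10 genes and the other gene lists (190 genes, 189 matched) were chosen with earlier results of these data known. Counts were tested with edgeR 4.0.16 in R 4.3.3 (TMM, filterByExpr by group, quasi-likelihood F test, Benjamini-Hochberg adjusted p under 0.05 over all genes tested): 1 fit of the 12 LN libraries, 1 of the 9 BM libraries and 1 of all 21 for comparisons across tissues. On counts simulated for LN AGF+ against AGF- KI/+ (15884 genes), the edgeR test recovered 51 of 100 genes changed 2-fold and 100 of 100 changed 4-fold, with 8 false calls. These figures do not give the power for the 10 genes, most of them near 0 in LN AGF+ cells. Levels are CPM over TMM effective sizes, with a pseudocount of 0.5 on log scales. A group with no count was given 3 counts over the group as its floor, and ratios carry 95% exact counting intervals. From each other list at most 4 called genes with the smallest p are named per comparison; the rule for likeness is given with its result. A gene named outside these rules is marked as such.

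Libraries of the same number were checked as pairs by the correlation of deviations from group means. It passed 0.1 at all 3 numbers for 7 of the 9 pairs of groups from 1 tissue, all compared pairs among them. Across tissues it did so for only 3 of the 12 pairs. The main fits took no pairing in either case. The number as a block was run as an alternative, also for the comparisons across tissues. The alternatives were DESeq2 1.42.0 size factors and Wald test, limma 3.58.1 voom, library size alone, 2 other filters, other sets of libraries in the fit, the replicate number as a block, an adjusted p under 0.01, each library left out in turn and all libraries numbered 2 left out. Motifs and sequences were read from RefSeq and GENCODE references of the same build.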

Additional observations from a re-analysis of the deposited data

Results flagged for a closer look

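For 5 of the 10 genes the effect of the reporter sort differed between LN and BM in KI/+ cells by a test of the difference itself, the interaction term of edgeR's quasi-likelihood model. All 5 terms were lower in LN, where 11.2% of 17265 tested genes were called lower. The term, LN effect minus BM effect on the log2 scale, was -13.63 for Gzma (adjusted p = 3.5e-05), -10.70 for Gzmb (0.000345), -7.82 for Eomes (0.000599), -6.39 for Nkg7 (0.00389) and -7.34 for Klrc2 (0.0335). Gzma, Gzmb and Eomes fell with the reporter in LN and rose with it in BM. Gzma and Eomes reached the filter level of their tissue only in LN AGF- and BM AGF+ libraries, so their calls describe and do not support. Gzmb had no count in LN AGF+ cells, so the size of its term depends on the prior count of the fit. For Nkg7 and Klrc2, which were near 0 in BM, the difference was the LN fall set against BM values of 25 and 23 counts and of 6 and 2 counts. Both genes entered through LN AGF- cells, so their calls also describe and do not support. The Klrc2 call was lost when any of 5 libraries was left out, with adjusted p from 0.0535 to 0.450. The BM sorts differed in gate as well as reporter, so these cannot be told apart.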

How the results depend on the processing

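Over the alternatives run, 1627 of 1685 values of single genes kept their direction and side of the threshold, 33 lost their call, 25 gained one and 0 reversed. With limma voom the LN sort comparison called 2 of 10 in KI/+ and 6 of 10 in AireKO cells in place of 10, with all 10 fitted below 0. With no filter on low counts, AireKO against KI/+ called 2 in LN AGF- cells and 1 in BM AGF+ cells in place of 0, and the interaction of sort and tissue called 9 in place of 5. That interaction called 10 with the DESeq2 Wald test. The replicate block raised it to 8, adding Klrc1, Prf1 and Tbx21, and changed no other count by over 1.5 times. The cause of these changes was not tested. Leaving out 1 library at a time gave 10 to 10 calls in both LN sort comparisons, 0 to 0 in the genotype comparisons and their interaction, 2 to 3 for BM AGF+ against total DCs, 4 to 4 (KI/+) and 3 to 4 (AireKO) for AGF+ cells of LN against BM, 8 to 9 for LN AGF- against BM total DCs and 4 to 6 for the interaction of sort and tissue. Depth limits the ratios: 3 counts in 1 library are 0.456 to 0.764 CPM, and 8 of 10 genes had 3 counts or fewer in LN AGF+ KI/+ cells.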
